A study of Drosophila melanogaster with 2 samples.

Results

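The vacuolar ATPase, or V-ATPase, is the proton pump that acidifies lysosomes and other compartments and that, in the surface membrane of many insect epithelia, powers the transport of ions. A soluble part (V1) splits ATP with its A and B subunits, and a membrane part (Vo) carries protons through a ring of c subunits that turns against the a subunit. The H subunit is needed for ATP splitting to be tied to proton flow, and the small e subunit belongs to Vo. Drosophila melanogaster has several gene copies (paralogs) for most of these subunits, so the copies in use can differ between tissues.

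Transcripts of these subunits were examined in the hindgut of mature and young adult flies. The flies of both ages carried bynGal4, a driver line named for the hindgut gene brachyenteron, and were reared at 25 °C. Mature hindguts came from adults kept for 4 days at 18 °C after they had left the pupal case. Young hindguts came from adults taken as soon as they had done so. The labels give 3 replicates of 100 to 150 guts for each age. They name the cell type as adult ileal cells; the ileum is the tubular main part of the hindgut. Age and the holding temperature at 18 °C changed together and cannot be told apart. The sex of the flies was not given in the sources used here, and no transgene driven by bynGal4 is named. Values per library were not analysed here: the authors' deposited table gives each feature 1 mean of normalized counts over the 6 libraries and 1 estimated change. That change is deposited as young over mature, so a positive log2 value is a gene lower in mature guts. The spread behind each standard error may be technical, since nothing says how the replicates were formed. In bulk tissue, fewer cells of a type and less RNA per cell cannot be told apart.

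The genes were chosen by name and place: symbols starting with Vha on chromosome arm 2L up to position 22247875 or on 3L up to position 5149852, called here the name-checked stretches, of build BDGP6 in Ensembl release 115. In the authors' deposited table, names fit the counts there but poorly elsewhere. The 19 cytoplasmic ribosomal protein genes in the stretches had means of 28246 or more, whereas 66 elsewhere had a median mean of 1.33 and 27 were listed at 0 in the authors' deposited table. The stretch ends had been set with ribosomal gene means in view, so this contrast is partly built in. The rule found 8 genes among 5237 features of the stretches and 23932 of the table. They are 3 genes of the A subunit (Vha68-1, Vha68-2 and Vha68-3), 1 gene each of H (VhaSFD), a (Vha100-5) and c (Vha16-5), and 2 of e (VhaM9.7-a and VhaM9.7-c). A further 24 Vha genes lie outside the stretches, with a median mean of 0.707 and 10 listed at 0 in the authors' deposited table. They include Vha55, the B subunit gene, listed at a mean of 0.814 by the authors' deposited table. The names of these 24 were not relied on, so the pump is described here only in part.

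Each gene on 2L lay between ribosomal protein genes with high means, such as RpL9 and RpL24 on either side of Vha100-5 and of the A subunit genes, with means of 52402 and 56220 in the authors' deposited table. On 3L the nearest such gene, RpL28, lay 0.965 Mb to the left of VhaM9.7-c, and none followed within the stretch, so the names of both e subunit genes have less beside them. Since the stretches were set on such means, high flanking values follow from the rule and are no separate check of the names. Hindgut regulators were present: all 5 of the 9 hindgut markers that lie in the stretches had means between 505 (wg) and 13433 (drm, a zinc finger gene of gut patterning) in the authors' deposited table. All 5 passed the authors' test, as did 40.3% of the 2604 tested features of the stretches. Those higher in mature guts were dpp (log2 -0.69) and bowl (-0.29), and those higher in young guts were drm (0.96), cad (0.81) and wg (0.69), by the authors' deposited table. The summed level that these values imply is 19481 normalized counts in mature guts and 29603 in young guts, and its part in the V-ATPase changes was not tested. That sum joins opposite changes and rests most on drm, so it does not show how hindgut content differed between the ages.

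Transcripts of Vha68-2 and VhaSFD were very abundant and lower in mature than in young guts. Vha68-2 had the highest mean of the 5237 features in the name-checked stretches and VhaSFD the ninth highest. Their deposited young-over-mature folds were 2.12 and 2.23. The other copies of the A subunit were far rarer, and the most abundant of these, Vha68-1, was lower in mature guts by a smaller factor. None of the 7 genes with an adjusted p passed the test in the direction of mature guts, though VhaM9.7-c did after recentring on the ribosomal protein genes (log2 -0.32, adjusted p = 0.0171), where Vha68-1 lost its call.

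The 3 genes of the A subunit, the part of the pump that splits ATP, lie within 29.8 kb of 2L. Vha68-2 (FBgn0263598) runs on the plus strand from 12974322 to 12978607. Vha68-3 (FBgn0032464; 12978786 to 12981293) starts 178 bases after it on the same strand. Vha68-1 (FBgn0265262; 13000770 to 13004107) follows 19.5 kb further on, on the minus strand. In the annotation Vha68-1 and Vha68-2 each encode 614 residues in 4 coding exons of the same lengths, 76, 698, 978 and 90 bases. Vha68-3 has 2 coding exons and 743 residues. The pair therefore share a gene structure that Vha68-3 lacks.

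**Figure D1:**
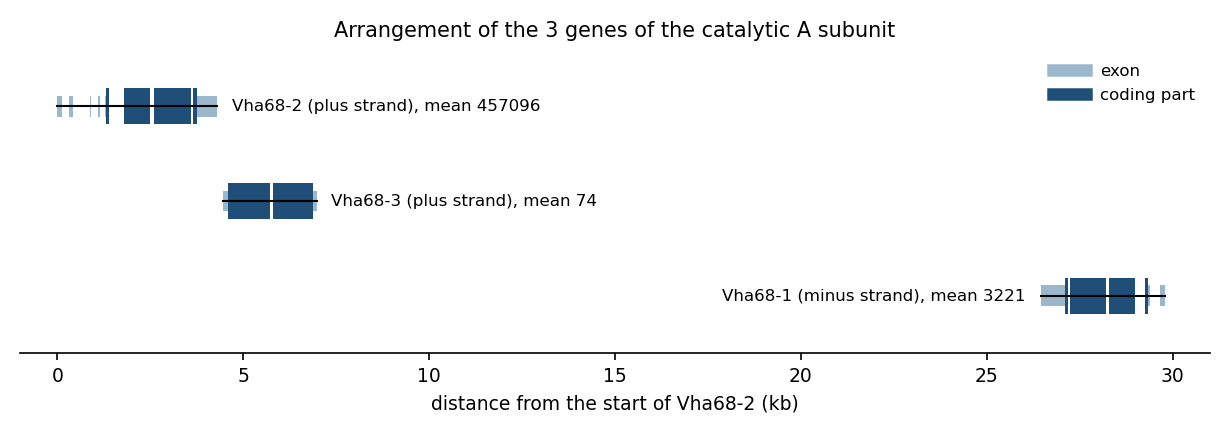
Map of the A subunit genes, with the horizontal axis in kb from the start of Vha68-2 and thick bars for the coding parts of exons. The deposited mean of normalized counts stands beside each gene: 457096 for Vha68-2, 74 for its downstream neighbour Vha68-3 and 3221 for Vha68-1.

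Vha68-2 had a mean of 457096 normalized counts in the authors' deposited table, 1.55% of the summed mean of all features. Vha68-1 had a mean of 3221 and Vha68-3 one of 74.4 in the authors' deposited table. Per kb of merged exon, which allows genes to be compared, the levels were 165674 for Vha68-2, 1203 for Vha68-1 and 30.4 for Vha68-3. Vha68-2 thus stood 138-fold above Vha68-1, and Vha68-1 stood 39.5-fold above Vha68-3. Of the summed level per kb of the A subunit genes, Vha68-2 made up 99.3%, Vha68-1 0.721% and Vha68-3 0.0182%. The A subunit transcripts of these hindguts were almost wholly of Vha68-2.

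Reads of the gene that ends 178 bases upstream could reach Vha68-3 if transcripts ran on; what part of its 74.4 normalized counts came that way was not tested. Reads from stretches that Vha68-1 and Vha68-2 have in common could also have been split or dropped in the authors' counting, and the sources used here do not give its settings, so the smaller value of the pair is the less certain.

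Vha68-2 had a log2 change of 1.09 with a standard error of 0.084 in the authors' deposited table (DESeq2 Wald test, adjusted p = 2.50e-36). From the deposited mean and change, and taking the 3 libraries of each age as equal in weight, its level comes to 292805 normalized counts in mature guts and 621387 in young guts. Vha68-1 had a log2 change of 0.36 with a standard error of 0.095 in the authors' deposited table (adjusted p = 0.000645). The levels implied for it are 2816 normalized counts in mature guts and 3627 in young guts. Both genes were thus lower in mature guts by the authors' test, but Vha68-1 no longer passed with all changes recentred on the ribosomal protein genes (log2 0.19, adjusted p = 0.0992). For Vha68-3 the authors' deposited table gives a log2 change of 0.45 with a standard error of 0.39 (adjusted p = 0.442), and the implied levels are 63.0 normalized counts in mature guts and 85.8 in young guts. The levels of this rare gene would lie too close together if its change was shrunken toward 0, which was not tested. Its 95% interval, from -0.32 to 1.22, holds both no change and the change of Vha68-2.

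The difference in log2 change between Vha68-2 and Vha68-1 was 0.72, with a standard error of 0.13 and a 95% interval from 0.47 to 0.97 if the errors of the genes are independent. With the errors added in full, the interval ran from 0.37 to 1.07 and still left out 0. The ratio of Vha68-2 to Vha68-1 per kb was accordingly 101 in mature guts and 166 in young guts, and the share of Vha68-1 in the A subunit level was 0.981% in mature guts and 0.598% in young guts. Between Vha68-2 and Vha68-3 the difference was 0.64, with an interval from -0.15 to 1.43, and between Vha68-1 and Vha68-3 it was -0.081, with an interval from -0.87 to 0.71. Neither of these shows whether the genes changed alike or apart, and both take the change of Vha68-3 as unshrunken. No p is given for these 3 differences, since values per library would be needed to know how the genes vary together. Summed over the 3 genes, the A subunit level implied is 295684 normalized counts in mature guts and 625099 in young guts, a young-over-mature fold of 2.11.

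**Figure D2:**
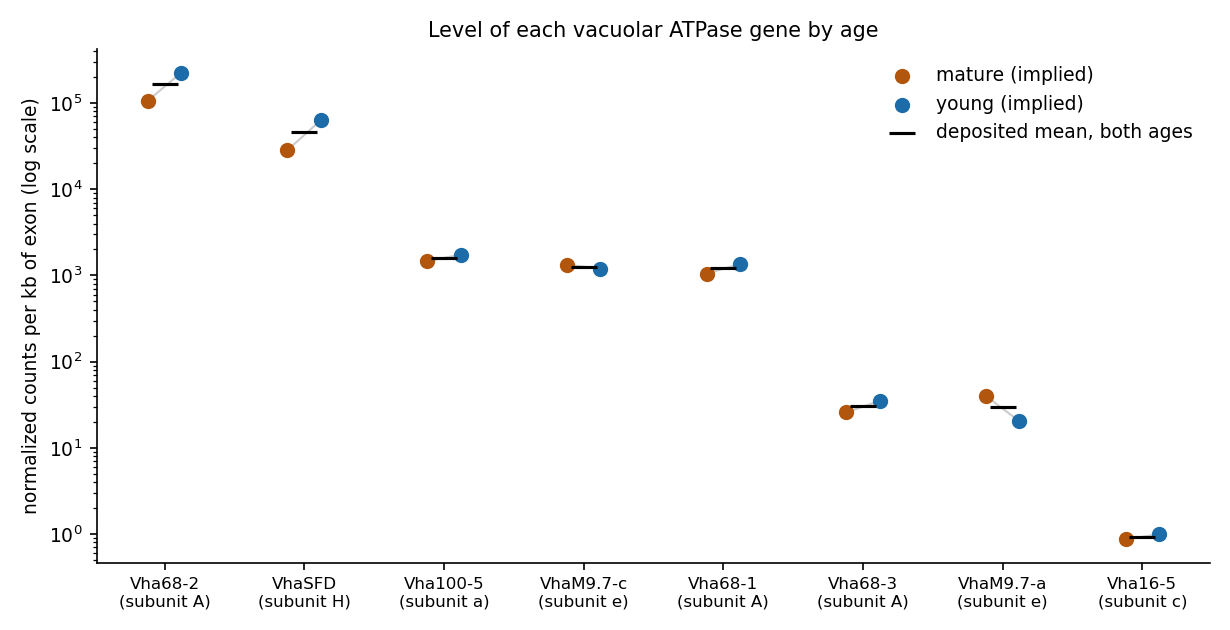
Level of each V-ATPase gene in normalized counts per kb of exon on a log scale, with the level implied for mature guts on the left of each pair, that for young guts on the right and a dash for the deposited mean of both. Vha68-2 (165674) and VhaSFD (45872) stand well above the next gene, Vha100-5 (1602), and Vha16-5 (0.932) is the lowest.

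VhaSFD (FBgn0027779; 2L, 16722883 to 16727826, minus strand) encodes the H subunit, the regulator of the soluble part, in 4 annotated transcripts. It had a mean of 129771 normalized counts in the authors' deposited table, and its level per kb was 45872. Its log2 change was 1.16 with a standard error of 0.085 in the authors' deposited table (adjusted p = 4.46e-40). The levels implied are 80428 normalized counts in mature guts and 179114 in young guts. The difference in log2 change, Vha68-2 minus VhaSFD, was -0.070, with a 95% interval from -0.30 to 0.16 for independent errors and from -0.40 to 0.26 with the errors added in full, so any difference between them was within the error. Per kb, Vha68-2 was 3.73-fold above VhaSFD in mature guts and 3.56-fold in young guts. As background, a pump holds more copies of the A than of the H subunit.

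VhaSFD ends 238 bases from the end of Cyt-c-p, the gene of the electron carrier cytochrome c, which is read toward it on the other strand. In the authors' deposited table, Cyt-c-p had a mean of 70504 and a log2 change of 1.90. Whether reads running past either gene's end entered the count of the other was not tested. The microRNA gene mir-1006 lies in an intron of VhaSFD and was listed at 0 in the authors' deposited table.

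Of the membrane part, Vha100-5 (FBgn0032373; 2L, 11738948 to 11744524), a gene of the a subunit against which the ring turns, had a mean of 4675 and a log2 change of 0.25 with a standard error of 0.14 in the authors' deposited table (adjusted p = 0.176). The levels implied are 4276 normalized counts in mature guts and 5073 in young guts. Its 95% interval, from -0.025 to 0.52, leaves out the change of Vha68-2, and the difference, Vha68-2 minus Vha100-5, was 0.84 with an interval from 0.52 to 1.16 for independent errors. The standard error was larger than the median of 0.096 over the 511 tested features of the stretches with means within 2-fold of it. An antisense RNA gene, asRNA:CR44144, overlaps 527 bases of its exons and was listed at 0 in the authors' deposited table. How reads in that overlap were counted is not known.

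The e subunit genes differed in level. VhaM9.7-c (FBgn0028664; 3L, 4186018 to 4186865) had a mean of 1074 and VhaM9.7-a (FBgn0035521; 3L, 4262705 to 4263464) one of 21.4 in the authors' deposited table, which is 42.0-fold apart per kb of exon. VhaM9.7-c had a log2 change of -0.15 with a standard error of 0.12 in the authors' deposited table (adjusted p = 0.360). The levels implied for it are 1131 normalized counts in mature guts and 1018 in young guts. VhaM9.7-a had, by the authors' deposited table, a log2 change of -0.98 with a standard error of 0.53 (adjusted p = 0.157), and the implied levels are 28.4 normalized counts in mature guts and 14.4 in young guts. These levels take the change as unshrunken. They would understate the difference if the change was shrunken toward 0, which was not tested. Neither passed the test as deposited, while VhaM9.7-c was higher in mature guts after the recentring (Wald test, adjusted p = 0.0171). That p leaves out the error of the ribosomal median, and 31% of tested features were higher in mature guts on that scale. The difference, VhaM9.7-c minus VhaM9.7-a, of 0.83 had an interval from -0.24 to 1.89 and also takes the changes as unshrunken. VhaM9.7-c lies in introns of Teh2, on the same strand, and of CG18675, on the other, listed at means of 31.4 and 0.321 in the authors' deposited table. Whether unspliced RNA of these genes added to its count was not tested.

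Vha16-5 (FBgn0032294; 2L, 10736319 to 10737043), a paralog of the ring-forming c subunit, was barely detected. Its mean of 0.676 in the authors' deposited table amounts to 4.06 normalized counts over all 6 libraries. It had a p of 0.443 but no adjusted p in the authors' deposited table, where adjusted values start at a mean of 6.11, and no fold is given for it. Its standard error of 0.26 was below that of Vha68-3, at 0.39, in the authors' deposited table despite the far lower count. The largest deposited standard error was 0.531. Errors that stay this small at low counts are what shrinkage of the changes toward 0 would give, for Vha68-3 and VhaM9.7-a as well. Whether the changes were shrunken was not tested. A change in Vha16-5 was not detectable at this depth.

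**Figure D3:**
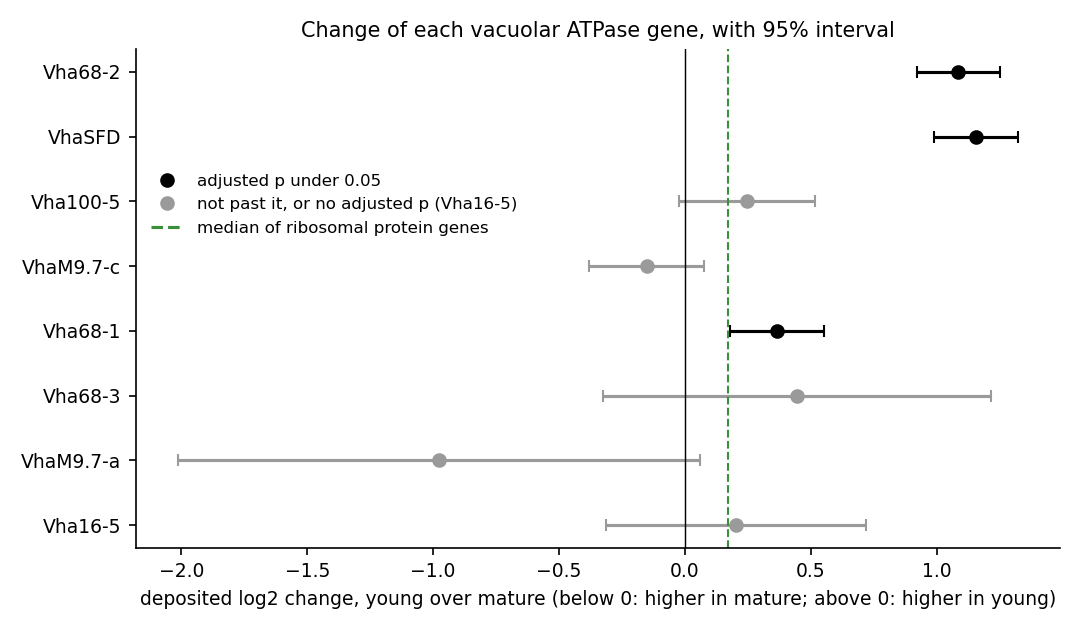
Deposited log2 change of each gene, young over mature, with its 95% interval, ordered by level per kb from the top. Vha68-2 (1.09) and VhaSFD (1.16) stand apart from 0, Vha68-1 (0.36) passed the test, and the other intervals include 0; the dashed line is the median of the ribosomal protein genes (0.17).

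In order of level per kb the genes ran Vha68-2, VhaSFD, Vha100-5 (1602), VhaM9.7-c (1267), Vha68-1 (1203), Vha68-3 (30.4), VhaM9.7-a (30.1) and Vha16-5 (0.932). The table holds no error of the mean, so neighbours could not be tested. The order within Vha100-5, VhaM9.7-c and Vha68-1, and within Vha68-3 and VhaM9.7-a, rests on the length used, since per kb of coding sequence VhaM9.7-c (4264) stood above Vha100-5 (1914) and Vha68-1 (1749), and VhaM9.7-a (83.9) above Vha68-3 (33.4). In mature guts the implied levels per kb of exon were 1465 for Vha100-5, 1334 for VhaM9.7-c and 1052 for Vha68-1. In young guts they were 1739 for Vha100-5, 1200 for VhaM9.7-c and 1355 for Vha68-1, so VhaM9.7-c and Vha68-1 stand in opposite orders at the 2 ages, a change of place that was not tested.

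Of the 8 genes, 7 had an adjusted p, and 3 of these passed at 0.05, all lower in mature guts. That is a share of 42.9%, against 40.3% of the 2604 tested features of the stretches in either direction, so the number of changed genes is close to the background. In the direction of young guts the background was 20.7%, and in that of mature guts 19.7%. The median log2 change of the 7 was 0.36, beside -0.0070 over the 2604. At least 2-fold lower in mature guts were Vha68-2 and VhaSFD, as were 7.8% of the tested features. The summed mean of the 8 genes was 595934, or 2.03% of the table, nearly all of it from those 2. None of the 8 was on the authors' own lists of 91 features for mature and 132 for young guts, whose smallest absolute log2 changes were 1.97 and 1.96 in the authors' deposited tables.

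**Figure D4:**
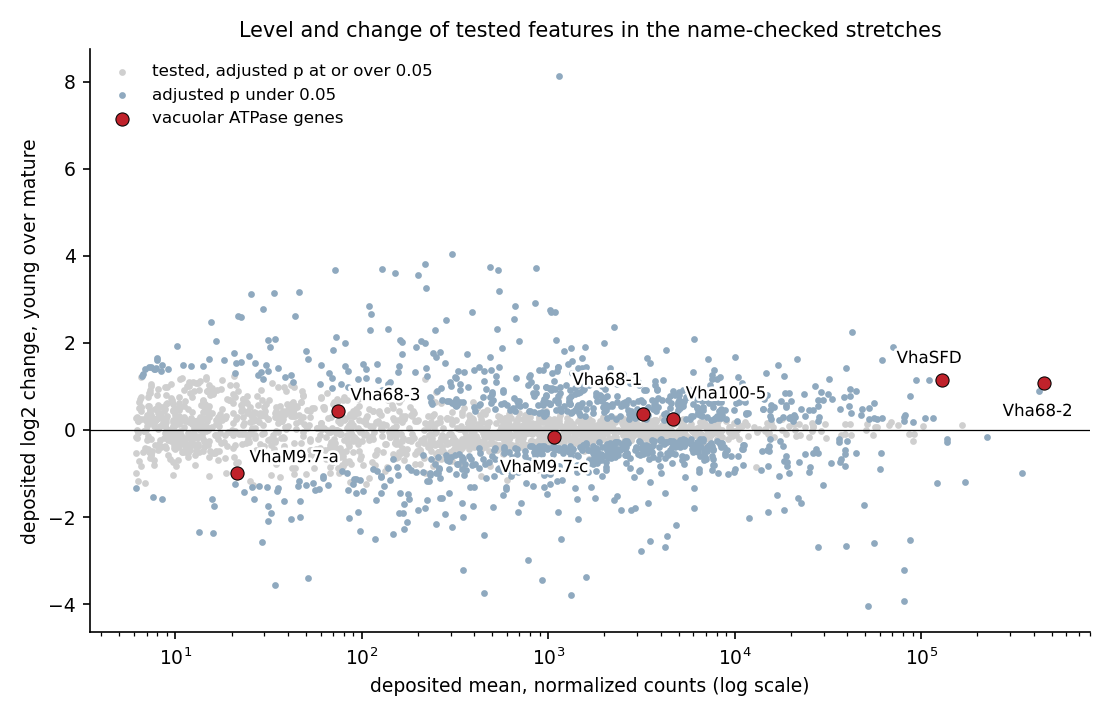
Deposited mean on a log axis against deposited log2 change, young over mature, for the 2604 tested features of the name-checked stretches, with the 7 tested V-ATPase genes marked. Vha68-2 and VhaSFD lie at the far right above 0, while the 5 rarer genes lie among the bulk of features.

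The calls of the 2 abundant genes held under both recentrings that were tried, whereas others changed with the scaling. The 19 ribosomal protein genes of the stretches had a median log2 change of 0.17, which was taken as exact. The recentred p values thus leave out its error. With all changes taken relative to that median, Vha68-2 had a log2 change of 0.91 (adjusted p = 7.34e-26) and VhaSFD one of 0.98 (adjusted p = 3.72e-29). Vha68-1 then no longer passed, at 0.19 (adjusted p = 0.0992), and VhaM9.7-c was higher in mature guts, at -0.32 (adjusted p = 0.0171). On that scale, 31% of tested features were higher in mature guts and 15.8% in young guts.

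Among the 50 features of the stretches with the highest means, the 3 with changes nearest to that of Vha68-2 were nrv1 (log2 1.14), mAcon1 (1.14) and VhaSFD (1.16) in the authors' deposited table. nrv1 encodes a beta subunit of the sodium pump and mAcon1 the mitochondrial aconitase of the citric acid cycle. Likeness was measured by the difference in log2 change over a single comparison of 2 ages, which many genes can share: 15 of the 50 were higher in mature guts and 22 in young guts.

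Genes that work beside the pump in ion transport went both ways. Of the 32 genes on this list, 10 lie in the stretches and were tested. Of these, 2 were higher in mature guts, 4 were higher in young guts and 4 did not pass, with a median log2 change of 0.30. Over all tested features of the stretches 19.7% were higher in mature guts and 20.7% in young guts, with a median of -0.0070. CAH1, a carbonic anhydrase, which makes protons and bicarbonate from carbon dioxide and water, had the smallest p and a young-over-mature fold of 2.80 in the authors' deposited table (adjusted p = 1.66e-63). The sodium pump subunit gene nrv1 had a fold of 2.20 and its neighbour nrv2 one of 1.37 in the authors' deposited table. By the authors' deposited table, Ndae1, a sodium-dependent anion exchanger, had a log2 change of 0.64. The sodium/proton exchanger genes Nhe3 and Nhe1 were higher in mature guts, at -0.43 and -0.32 (log2) in the authors' deposited table. By the authors' deposited table, Nha1, a sodium/proton antiporter gene of the family thought to use the gradient the V-ATPase makes, had a mean of 165721 and a log2 change of 0.11 (adjusted p = 0.386).

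Lysosomal genes serve the compartment the pump acidifies. Of 28 genes, 8 lie in the stretches and were tested: 3 were higher in mature guts, 2 were higher in young guts and 3 did not pass, with a median log2 change of 0.13. The tested features as a whole also split nearly evenly, with 19.7% higher in mature guts and 20.7% in young guts. Those higher in mature guts by the authors' deposited table were the sterol carrier genes Npc2a (log2 -1.19) and Npc1a (-0.73) and bchs (-0.87), a BEACH domain protein of vesicle traffic and autophagy. Those higher in young guts were LManII (log2 0.81), a lysosomal mannosidase, and Lamp1 (0.31), a membrane protein of lysosomes, by the authors' deposited table. Of the list of 12 regulators and partners without the Vha prefix, the authors' deposited table has an adjusted p in the stretches for mTor (log2 0.089, adjusted p = 0.532) and Lamtor3 (0.075, adjusted p = 0.756). The growth kinase gene mTor, known from mammalian cells to respond to amino acids through a complex with the pump and Lamtor3, starts 372 bases from Vha68-1 on the other strand. Of the mitochondrial ATP synthase, a related rotary machine that makes ATP, only ATPsynG was tested, which was higher in young guts (log2 0.70, adjusted p = 1.12e-09) by the authors' deposited table. The other 2 of that list in the stretches, ATPsynGL and ATPsynCF6L, were listed at 0 in the authors' deposited table.

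**Figure D5:**
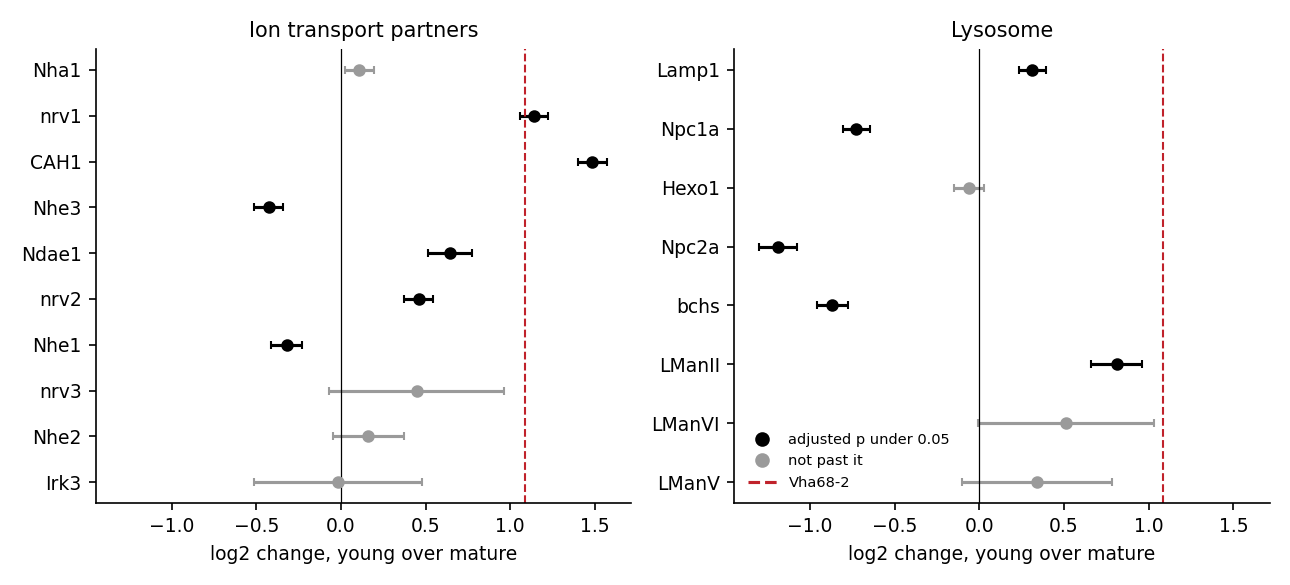
Deposited log2 changes, young over mature, with standard errors, for the tested ion transport genes (left) and lysosomal genes (right), ordered by mean from the top. CAH1 (1.48) and nrv1 (1.14) reach the change of Vha68-2, drawn as a dashed line at 1.09, and no lysosomal gene does, LManII being highest at 0.81.

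Other tissues could carry V-ATPase transcripts into a hindgut sample, and their markers are given for that reason; their part in the changes above was not tested. Over all tested features of the stretches, 40.3% passed in either direction, 19.7% toward mature guts and 20.7% toward young guts. The Malpighian tubules, the fly's renal organ, join the gut at the front of the hindgut and are rich in the pump. Of 13 tubule markers, 3 lie in the stretches, and none passed: ZnT35C had a mean of 1144 and a log2 change of 0.77 (adjusted p = 0.0828), Uro one of 600.3 and -1.16 (adjusted p = 0.0732), and Irk3 one of 453 and -0.016 (adjusted p = 0.987), all from the authors' deposited table. Their standard errors were large, at 0.353 for ZnT35C, 0.516 for Uro and 0.495 for Irk3. The median was 0.142 over the 611 tested features with means within 2-fold of VhaM9.7-c (1074), a range that Irk3 falls below. Over the 313 tested features within 2-fold of Vha68-3 (74.4), a lower mean than that of any of these markers, the median was 0.390. The summed level implied for these 3 was 2130 normalized counts in mature guts and 2264 in young guts. That sum joins opposite changes of Uro and ZnT35C, so it does not show that tubule content was alike at both ages. Of 14 midgut markers, 3 lie in the stretches, with a summed implied level of 979 in mature guts and 699 in young guts. Most of that sum is Jon25Biii, with a mean of 778 but no p in the authors' deposited table, so the sum rests on an untested gene. The other 2 were tested and had low means in the authors' deposited table. Jon25Bi, a digestive protease, was higher in mature guts (mean 26.5, log2 -1.58). Jon25Bii did not pass (mean 34.4, log2 -0.23, DESeq2 Wald test, adjusted p = 0.599). Of 10 visceral muscle markers, 3 lie in the stretches, and all 3 passed. Of these, Msp300 (mean 136873, log2 -0.21) was higher in mature guts by the authors' deposited table. Mhc (mean 428275, log2 0.90) and sls (55993, 0.63) were higher in young guts. After Vha68-2, Mhc had the highest mean of the stretches. The summed implied level of these 3 was 490250 in mature guts and 752030 in young guts. That sum joins opposite changes and is mostly Mhc, so it does not show how muscle content differed between the ages. Of 5 hemocyte markers, 4 lie in the stretches. By the authors' deposited table, crq (mean 8852, log2 -0.57) was higher in mature guts. Pxn (mean 3049, log2 0.32), NimC1 (26.6, 1.54) and Sr-CI (35.7, 1.43) were higher in young guts. The summed implied level of these 4 was 13330 in mature guts and 10598 in young guts. Most of that sum is crq, so it does not show which age held more hemocyte RNA. Some rare V-ATPase paralogs of the fly are known from the testis. Of 12 testis markers, 3 lie in the stretches, of which aly and ProtA were listed at 0 and ProtB at a mean of 0.671 in the authors' deposited table.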

How the data were processed

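RNA was extracted with Trizol and sequenced as read pairs on a NovaSeq, per the labels' protocols. The submitters' processing notes name Trim Galore, HISAT2, DESeq2 and build BDGP6, with no versions; which program counted reads, with what strand setting and annotation, is not given in the sources used here. The mean is a signal deposited by the authors, averaged from normalized counts of all libraries. The change and its standard error are log2 values deposited by the authors, base 2 being taken as the one DESeq2 reports. The deposited Wald score is the ratio of the change to its error. Both the p-value and the adjusted p, over 10458 features, are as deposited. Read depth of single libraries was not analysed here; the deposited means sum to 29416663. A planned edgeR test needs counts per library and was not run, so the authors' DESeq2 test stands.

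The 8 genes and all lists were chosen with earlier results of these data known. All 8 were named; from each list, up to 4 genes by smallest p and those needed for the counts, plus the 3 features nearest to Vha68-2 in change among the 50 most abundant; neighbouring genes, ribosomal protein genes and Vha55 were named after their values were seen. Identifiers were matched to Ensembl release 115, which held 23851 of 23932; positions are 1-based. Exons were merged over transcripts. The level implied for an age takes the change as unshrunken and the libraries as equal in weight, neither of which was tested. Values and figures were made in Python 3.11.15 (pandas 2.3.3, numpy 2.4.6, scipy 1.17.1; figures with matplotlib 3.10.9). Adjustment, and recentring on the median of all tested features, were tested on simulated data with 200 of 10458 features changed. That is a smaller share than the 40.3% that passed in the stretches. Recentring on the ribosomal protein genes was not simulated. Alternatives were a stricter threshold, other adjustment sets, 2 recentrings, a test against a fold of 2, other gene lengths and wider errors.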

Additional observations from a re-analysis of the deposited data

How the results depend on the processing

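The 3 calls, all lower in mature guts, held at an adjusted p of 0.01, without the filter on low means, adjusted over the name-checked stretches alone and recentred on all tested features there. Recentred on ribosomal protein genes, 1 gene in place of 0 was higher in mature guts (VhaM9.7-c, log2 -0.32, adjusted p = 0.0171) and 2 were higher in young guts, since Vha68-1 (0.19, adjusted p = 0.0992) no longer passed; this takes the ribosomal genes as unchanged, which was not tested. Against a fold of 2 by a Wald test, 0 of the 7 passed, in either direction and toward young guts alone, with an adjusted p of 1 for Vha68-2 (1.09), VhaSFD (1.16) and Vha68-1 (0.36); the estimates of the first 2 lie above 2-fold but their intervals include it. Per kb of the longest transcript all 8 genes kept their place in the order of levels; per kb of coding sequence 4 did. Adding the standard errors in full left each difference in log2 change as it was and widened its interval. No paired analysis was possible because no library has a value of its own in the tables used, and leaving out each replicate was not run for the same reason. For the rarest genes, with means of 74.4, 21.4 and 0.676, depth limits what could be seen.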
